A study of Mus musculus with 4 samples.

Results

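The proteasome genes were taken as all genes of the array whose annotated symbol begins with Psma, Psmb, Psmc, Psmd or Psme followed by a digit. The rule found 44 genes among 18194 genes with a symbol of their own, represented by 91 of 34958 probe sets. Of these, 42 are genes of the proteasome, its activators and its assembly chaperones. The other 2, Psmc3ip and Psme3ip1, carry the name of a protein they bind and are no subunits, so they are given apart. The immunoproteasome was represented by 4 genes, Psmb8, Psmb9, Psmb10 and Psme1. The fifth gene of that group, Psme2, shares its only probe set in the annotation with Psme2b and has no value of its own here. The remaining 38 genes form the comparison group, called the other subunits below.

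The proteasome degrades proteins marked with ubiquitin. Its barrel-shaped core particle is built from rings of alpha (Psma) and beta (Psmb) subunits, and 3 of the beta subunits cut proteins. Regulatory particles of ATPases (Psmc) and non-ATPase subunits (Psmd) bind the ends of the core, recognise ubiquitin chains, unfold the substrate and feed it in. Interferon induces alternative catalytic subunits, Psmb8, Psmb9 and Psmb10, which replace Psmb5, Psmb6 and Psmb7 in newly made cores, and an activator made of Psme1 and Psme2. The resulting immunoproteasome favours peptides that fit MHC class I molecules. It is abundant in leukocytes and is also made by epithelial cells of the intestine.

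The study asked how different levels of canonical Wnt signalling act in the colonic epithelium, and it used 4 arrays in 2 pairs, all from male mice and each group on 1 array. The GFP pair came from H2B-GFP mice, whose histone fusion is made only while doxycycline is given. They had 7 days of labelling and then 2 days without the drug, and crypt cells were sorted by flow cytometry into GFPhigh (label kept, non-proliferating) and GFPlow (label diluted, proliferating). The Dox pair came from isolated colonic crypts of mice with a doxycycline-inducible β-catenin gene, either untreated (Dox minus) or after 5 days of drinking water with 2.0 mg/ml doxycycline (Dox plus). No sort is named for these crypts, and the untreated animals carried the same inducible gene. In this pair the drug and the induced protein cannot be told apart. The sources used here do not give the promoter of the transactivator, the strain, the age or how many mice an array stands for.

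Values are log2 expression as deposited. A gene counted as measured in a pair when at least 1 of its arrays reached a floor of 5, below which the background model decides the value, and lower values were set to that floor. Differences are GFPlow minus GFPhigh and Dox plus minus Dox minus. With 1 array per group there is no replicate error and no test between groups. Precision is limited by the number of arrays. As a yardstick within the same arrays, the 2 brightest measured probe sets of a gene gave differences that lay a median of 0.301 apart in the GFP pair (4079 genes) and 0.318 apart in the Dox pair (4064 genes). Levels of different genes are not compared, because probe sets bind with different strength. In bulk RNA, fewer cells of a type and less RNA per cell cannot be told apart.

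All 8 epithelial markers, among them Epcam and Cdh1, were above the floor on all 4 arrays, with list medians from 14.42 to 14.77. Of 15 leukocyte markers, 9 were under the floor on all 4 arrays, among them the T cell gene Cd3e, the B cell gene Cd79a and the macrophage gene Cd68, and 8 of 10 stromal markers were too. The number of leukocyte markers that reached the floor was 1 in GFPhigh, 2 in GFPlow, 6 in Dox minus and 5 in Dox plus. The highest in Dox minus were Laptm5 at 7.58, Jchain at 7.53, Ptprc at 7.19 and Coro1a at 6.63. All 6 proliferation markers found were higher in GFPlow, with a median difference of 2.24 and the largest for Cdk1 (3.52), Plk1 (3.31) and Mcm2 (2.31 or more). In the Dox pair they went both ways, with Plk1 at -1.04, Mki67 at -0.67 and Mcm2 at 0.91.

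Psmb8 and Psmb9, both inducible catalytic subunits, were the members with the largest differences in the Dox pair. Psmb8, the inducible chymotrypsin-like subunit, read 12.36 in GFPhigh, 11.83 in GFPlow, 11.63 in Dox minus and 9.27 in Dox plus. It was lower in GFPlow by a log2 difference of -0.53 and lower in Dox plus by -2.36, a level 5.15-fold lower. The difference had the same sign in both pairs and was larger in the Dox pair. The second probe set of the gene was under the floor in the sorted cells and read 7.74 in Dox minus and 5.09 in Dox plus, a difference of -2.65.

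Psmb9, the inducible counterpart of the caspase-like subunit Psmb6, read 11.31 in GFPhigh, 11.16 in GFPlow, 10.51 in Dox minus and 9.28 in Dox plus. The differences were -0.15 and -1.23, the latter a level 2.35-fold lower in Dox plus. Only the Dox difference was past 2-fold, and the GFP difference was smaller than the usual gap between probe sets. Psmb10, the inducible trypsin-like subunit, read 12.79 in GFPhigh, 12.82 in GFPlow, 11.54 in Dox minus and 11.20 in Dox plus. Its differences were 0.03 and -0.34, so in the Dox pair it lay below 0 by slightly more than that gap.

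Psme1, a subunit of the interferon-inducible activator ring, read 13.07 in GFPhigh, 13.09 in GFPlow, 12.40 in Dox minus and 12.29 in Dox plus. Its differences of 0.02 and -0.10 were near 0 in both pairs. The probe set annotated to both Psme2 and Psme2b, which is left out of all counts, read 13.00 in GFPhigh, 12.60 in GFPlow, 12.84 in Dox minus and 12.23 in Dox plus. It was lower in GFPlow by -0.40 and in Dox plus by -0.61, and which of the 2 genes it reports cannot be told apart here.

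**Figure D1:**
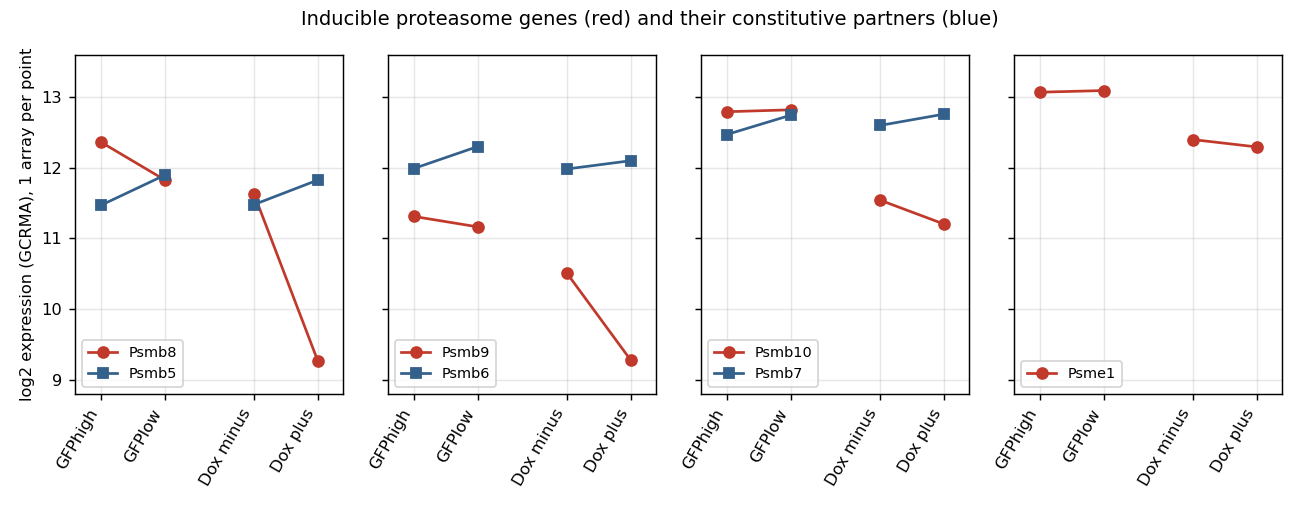
Log2 expression of the 4 immunoproteasome genes (red circles) and, in the first 3 panels, of the constitutive catalytic subunit each replaces (blue squares), with 1 array per point and lines joining the arrays of a pair. Psmb8 reads 9.27 and Psmb9 9.28 in Dox plus while Psmb5, Psmb6 and Psmb7 read slightly higher there; the vertical distance between genes has no meaning.

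The constitutive catalytic subunits read slightly higher in GFPlow and in Dox plus. Psmb5, the chymotrypsin-like subunit that Psmb8 replaces, read 11.47 in GFPhigh, 11.89 in GFPlow, 11.48 in Dox minus and 11.83 in Dox plus. Psmb6, the caspase-like subunit that Psmb9 replaces, read 11.99, 12.30, 11.98 and 12.10 on the same arrays in that order. Psmb7, the trypsin-like subunit that Psmb10 replaces, read 12.47, 12.74, 12.60 and 12.76. All 3 were higher in GFPlow, by 0.43, 0.31 and 0.27, and in Dox plus, by 0.35, 0.12 and 0.16. The Dox differences of Psmb6 and Psmb7 lay within the usual gap between probe sets and not far from the median of all measured genes, 0.06. In the GFP pair the difference of Psmb7 lay within that pair's gap of 0.301, and that of Psmb6 lay just above it.

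Each inducible subunit therefore differed unequally from its constitutive partner. The log2 ratio of Psmb8 to Psmb5 was lower in Dox plus than in Dox minus by -2.71, or 6.55-fold. For Psmb9 against Psmb6 the shift was -1.35 (2.55-fold), and for Psmb10 against Psmb7 it was -0.50 (1.41-fold). In the GFP pair the same ratios were lower in GFPlow by -0.96, -0.46 and -0.25. All 6 shifts were below 0, and in each pair they were largest for Psmb8 and smallest for Psmb10. Psmb10 was itself 0.03 higher in GFPlow, so its shift there came from Psmb7 and was smaller than the usual gap between probe sets.

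The promoters of the 3 inducible catalytic genes and of Psmb5 are shown because the ratio of Psmb8 to Psmb5 shifted most of the 3, and because motifs named for interferon and stress signalling can be looked for in them. Psmb9, Tap1, Psmb8 and Tap2 follow each other in this order along chromosome 17, with no other protein-coding gene of the gene table between them, where Tap1 and Tap2 encode the transporter that carries peptides to MHC class I. Each sequence runs from 250 bases before to 50 bases after the gene's start, 5′ to 3′ along the gene, from RefSeq on GRCm38.p6. The windows are chr17:34197945-34198244 on the plus strand for Psmb8, chr17:34187281-34187580 on the minus strand for Psmb9, chr8:105938343-105938642 on the minus strand for Psmb10 and chr14:54617946-54618245 on the minus strand for Psmb5. Capitals mark matches to any of the 3 motifs searched.
Psmb8: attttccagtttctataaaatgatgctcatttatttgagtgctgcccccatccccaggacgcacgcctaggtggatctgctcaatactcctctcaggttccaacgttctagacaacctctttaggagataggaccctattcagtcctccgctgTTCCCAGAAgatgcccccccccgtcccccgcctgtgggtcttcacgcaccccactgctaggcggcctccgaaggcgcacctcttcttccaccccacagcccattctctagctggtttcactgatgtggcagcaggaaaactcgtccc
Psmb9: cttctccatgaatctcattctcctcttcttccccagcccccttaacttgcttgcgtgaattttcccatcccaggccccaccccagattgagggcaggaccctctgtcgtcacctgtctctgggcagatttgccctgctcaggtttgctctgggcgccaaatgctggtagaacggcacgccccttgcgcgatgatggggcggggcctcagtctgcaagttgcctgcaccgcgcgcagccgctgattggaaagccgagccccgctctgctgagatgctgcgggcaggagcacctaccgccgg
Psmb10: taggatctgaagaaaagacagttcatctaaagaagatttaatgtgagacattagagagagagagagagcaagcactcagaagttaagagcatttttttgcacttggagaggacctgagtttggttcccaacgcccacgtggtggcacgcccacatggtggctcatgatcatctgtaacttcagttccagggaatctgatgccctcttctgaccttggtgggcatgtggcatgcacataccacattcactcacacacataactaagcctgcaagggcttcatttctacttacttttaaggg
Psmb5: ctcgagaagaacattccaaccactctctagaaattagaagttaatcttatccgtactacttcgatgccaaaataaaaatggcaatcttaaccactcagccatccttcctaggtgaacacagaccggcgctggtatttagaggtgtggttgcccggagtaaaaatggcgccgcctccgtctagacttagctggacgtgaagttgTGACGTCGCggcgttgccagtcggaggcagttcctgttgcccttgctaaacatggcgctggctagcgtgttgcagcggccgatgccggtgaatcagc

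The motifs were the core of the interferon-stimulated response element (GAAA, any 2 bases, GAAA), the gamma-activated sequence bound by STAT factors (TTCNNNGAA) and the antioxidant response element core bound by Nfe2l1 and Nfe2l2 (TGACNNNGC), each on both strands and without overlap between motifs in the sequences shown. Promoters were found for 37 of the 44 members. The Psmb8 promoter held TTCCCAGAA, a match to the gamma-activated sequence starting at position -97 from the gene's start. That motif is its own reverse complement, so every match to it lies on both strands. The Psmb9 and Psmb10 windows held none of the 3 motifs, and the Psmb5 window held TGACGTCGC, a match to the antioxidant element starting at -47. The gamma-activated sequence was present in 8.30% of all 32851 promoters of this length, in 1 of 4 immunoproteasome genes and in 1 of 31 other subunits with a promoter, Psmd2. The interferon element was present in 3.44% of all promoters, in Psme1 among the immunoproteasome genes, and in Psmb3, Psmd4 and Psmd9 among the others. The antioxidant element was present in 12.4% of all promoters, in 0 of 4 immunoproteasome genes and in 6 of 31 others, namely Psmb5, Psmb6, Psmc6, Psmd9, Psmd12 and Psme4. A match describes these letters only and is no evidence of binding.

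Most of the other subunits were slightly higher in proliferating cells. Of the 38 genes 36 were measured in the GFP pair, and 31 of these had higher values in GFPlow and 5 lower ones. Among all 9381 measured genes 53.2% were higher in GFPlow and 46.8% lower. The median difference of the 36 genes was 0.24 (1.18-fold), against 0.04 for all measured genes. They ranged from -0.24 to 0.60, and their interquartile range was 0.16, against 0.72 for the genes measured in both pairs. The genes set beside the subunits were not matched to them for expression level in either pair. None of the 41 members measured in this pair was 2-fold higher or lower, against 8.81% and 4.30% of all measured genes. At a log2 difference of 0.5 or more, 1 member was higher (Psmd13) and 1 lower (Psmb8), against 21.8% and 15.8%. Of the 36 other subunits 26 lay within the usual gap between probe sets (0.301), 10 lay above it and 0 lay below it.

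In the Dox pair most of the other subunits were again slightly higher. Of 36 measured, 30 had higher values in Dox plus and 6 lower ones, where 55.0% of all 9537 measured genes were higher and 45.0% lower. Their median was 0.21 (1.15-fold), against 0.06 for all measured genes. They ranged from -0.27 to 0.62, with an interquartile range of 0.31, against 0.66 for the genes measured in both pairs. None of the 42 members measured in this pair was 2-fold higher, against 6.93% of all measured genes. Psmb8 and Psmb9 were the 2 members at least 2-fold lower, against 5.35% of all measured genes. At a log2 difference of 0.5 or more, 4 members were higher (Psmd12, Psma4, Psmd7 and Psmd3), against 21.0%, and the same 2 were lower, against 14.3%. In order from the lowest difference upward, Psmb8 stood at place 94 and Psmb9 at place 352 among the 9537 genes. Of the 36 other subunits 25 lay within 0.318 of 0, 11 lay above and 0 below, while 3 of the 4 immunoproteasome genes lay below.

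The median of the 4 immunoproteasome genes was -0.06 for the sorted cells and -0.78 for the crypts of the Dox pair. It was lower than the median of the other subunits by -0.30 in the GFP pair and by -0.99 in the Dox pair. In the GFP pair 2 of the 4 lay below 0, against 46.8% of all measured genes, and in the Dox pair all 4 did, against 45.0%. The Dox value rests on Psmb8 and Psmb9, since the other 2 genes were at -0.34 and -0.10. Both probe sets of Psmb8 carry a name tag (_a or _x) of designs whose probes can bind more than 1 transcript. When all probe sets with such a tag (_x, _s or _a) were left out, Psmb8 had none, and the gap in the Dox pair was -0.54 over the remaining genes.

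**Figure D2:**
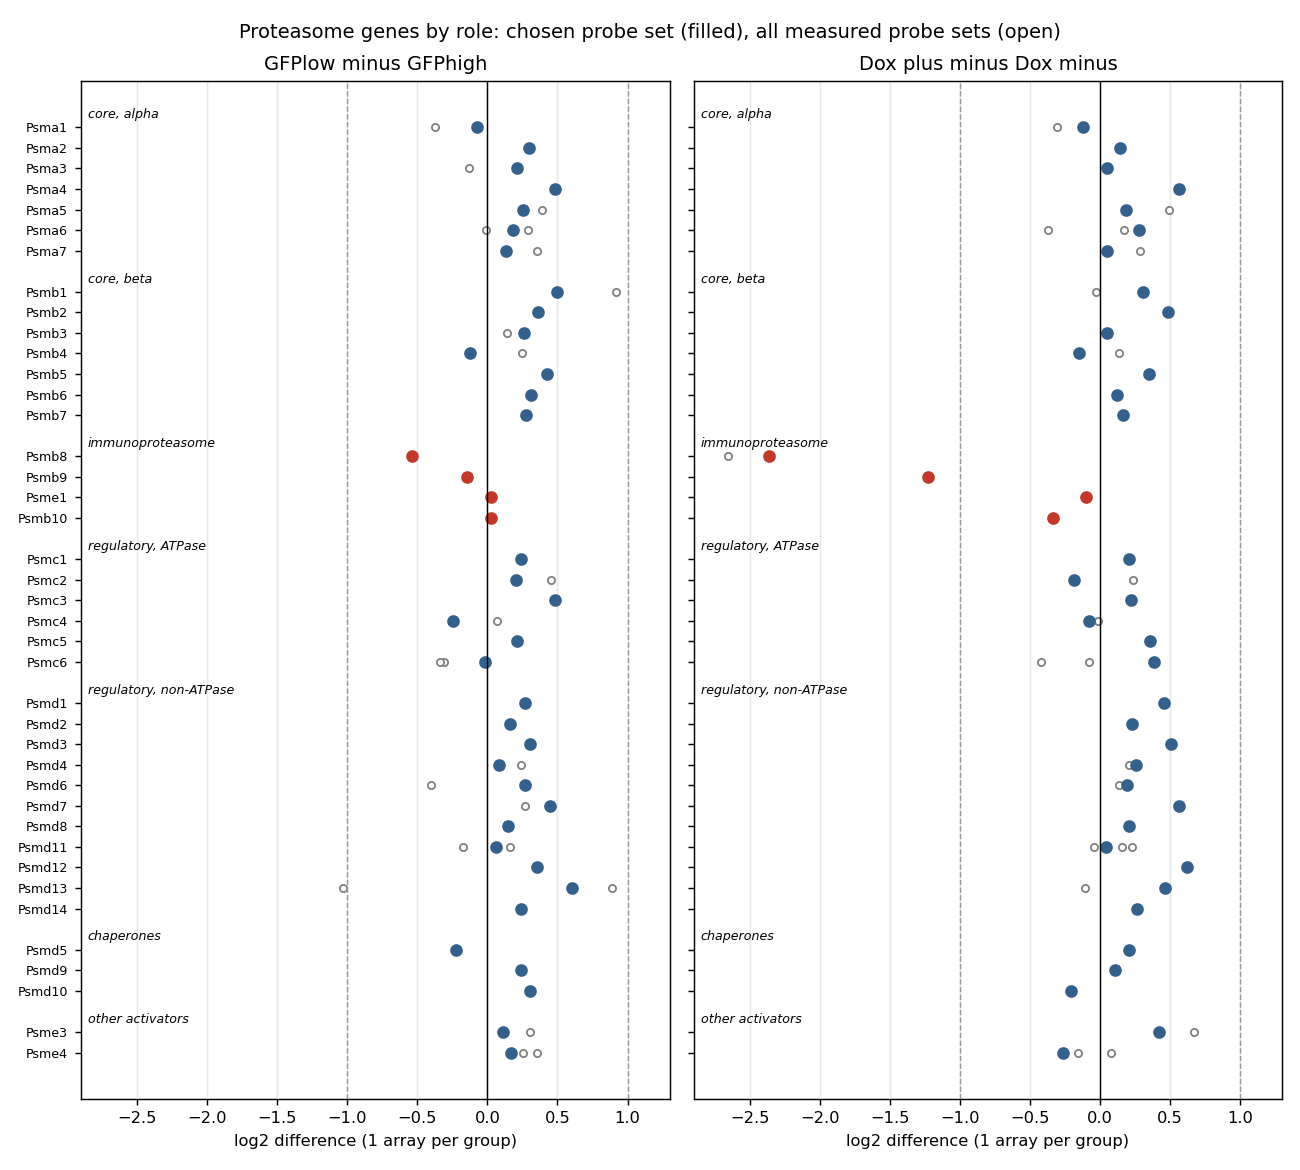
Log2 difference of each measured subunit gene in the GFP pair (left) and the Dox pair (right), grouped by role, with the probe set used (filled; immunoproteasome red) and all measured probe sets of the gene (open); dashed lines mark 2-fold. Most filled blue points lie between 0 and 0.5 in both panels, and Psmb8 and Psmb9 alone lie left of the 2-fold line in the Dox panel.

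The alpha subunits of the core, which form its outer rings and gate, had medians of 0.21 (GFP pair) and 0.14 (Dox pair), with 6 of 7 above 0 in each. Over all measured genes 53.2% and 55.0% were above 0, with medians of 0.04 and 0.06. Psma4 had the highest difference of the 7 alpha subunits in both pairs. It read 11.77 in GFPhigh, 12.26 in GFPlow, 11.81 in Dox minus and 12.37 in Dox plus, with differences of 0.48 and 0.57. Psma2 differed by 0.30 and 0.14, Psma5 by 0.25 and 0.19, Psma6 by 0.18 and 0.27, Psma3 by 0.21 and 0.05, and Psma7 by 0.13 and 0.05. Psma1 was below 0 in both pairs, reading 13.24, 13.16, 13.20 and 13.07 on the same arrays, with differences of -0.08 and -0.12. Psma8, a form of the alpha ring known from the testis, read from 2.38 to 2.60 and was under the floor on all arrays.

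The 7 constitutive beta subunits had medians of 0.31 and 0.16, again with 6 of 7 above 0 in each pair. Over all measured genes the medians were 0.04 and 0.06, and 53.2% and 55.0% lay above 0. In the Dox pair only Psmb2 and Psmb5 lay more than 0.318 from 0. Psmb1, a structural beta subunit, read 12.49 in GFPhigh, 12.99 in GFPlow, 12.00 in Dox minus and 12.31 in Dox plus, with differences of 0.50 and 0.31. Psmb2, also structural, read 10.67, 11.03, 9.26 and 9.74 in that order, with differences of 0.36 and 0.48. Psmb3, a neighbour in the ring, differed by 0.26 and 0.05. Psmb4 was the exception at -0.12 and -0.15, but its second probe set gave 0.25 and 0.14, so its direction was not settled. Psmb11, the catalytic subunit specific to the thymus, was under the floor on all arrays at 2.66 to 2.85.

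The ATPases of the regulatory particle, which form the ring that unfolds substrates, had medians of 0.21 in both pairs with 4 of 6 above 0 in each. This count is not far from the shares of all measured genes above 0, 53.2% (GFP pair) and 55.0% (Dox pair). Psmc3 read 11.22 in GFPhigh, 11.71 in GFPlow, 11.13 in Dox minus and 11.35 in Dox plus, with differences of 0.49 and 0.22. Psmc1 differed by 0.24 and 0.20 and Psmc5 by 0.21 and 0.35. Psmc4 was lower in GFPlow by -0.24 with the probe set used and higher by 0.07 with the other. Psmc2 was at 0.20 in the GFP pair and at -0.18 in the Dox pair, where its second measured probe set gave 0.24. Psmc6 was at -0.02 in the GFP pair with the probe set used, while its other 2 measured probe sets gave -0.31 and -0.33. In the Dox pair the 3 ranged from -0.42 to 0.38, and their mean was -0.04.

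With the probe sets used, the 11 non-ATPase subunits with a Psmd symbol were all above 0 in both pairs. Their medians were 0.27 and 0.26, against 0.04 and 0.06 for all measured genes, of which 53.2% and 55.0% lay above 0. In the GFP pair a further measured probe set lay below 0 for Psmd6, Psmd11 and Psmd13, and in the Dox pair for Psmd11 and Psmd13. With the mean of probe sets Psmd6 was at -0.07 in the GFP pair, and Sem1, a small lid subunit outside the naming rule, lay below 0 in both pairs at -0.35 and -0.70. Psmd12, a scaffold subunit of the lid, read 11.08 in GFPhigh, 11.44 in GFPlow, 11.13 in Dox minus and 11.75 in Dox plus. Its Dox difference of 0.62 (1.53-fold) was the highest of all members with the probe sets used. Psmd13, another lid subunit, read 9.91, 10.52, 9.67 and 10.13 on these arrays, and its difference of 0.60 (1.52-fold) was the highest in the GFP pair. Its 3 measured probe sets ranged from -1.03 to 0.89 in that pair with a mean of 0.16, and the lowest value comes from a probe set that was under the floor in GFPlow.

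Psmd7, a lid subunit and the partner of the deubiquitinase Psmd14, read 9.22 in GFPhigh, 9.66 in GFPlow, 10.36 in Dox minus and 10.93 in Dox plus, with differences of 0.45 and 0.56. Psmd14 itself differed by 0.24 and 0.26. Psmd3, a further lid subunit, read 9.95, 10.25, 9.78 and 10.29, with differences of 0.30 and 0.51. The large base scaffolds Psmd1 and Psmd2 differed by 0.27 and 0.16 in the GFP pair and by 0.45 and 0.23 in the Dox pair. The ubiquitin receptor Psmd4 differed by 0.08 and 0.26, Psmd6 by 0.27 and 0.19, Psmd8 by 0.15 and 0.21, and Psmd11 by 0.06 and 0.04. Psmd6 had a second probe set at -0.40 in the GFP pair, and the probe sets of Psmd11 ranged from -0.17 to 0.16 in the GFP pair and from -0.05 to 0.22 in the Dox pair.

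The chaperones that help to assemble the base of the regulatory particle went both ways. Psmd5 read 9.83 in GFPhigh, 9.61 in GFPlow, 9.90 in Dox minus and 10.11 in Dox plus, with differences of -0.23 and 0.21. Psmd10, also known as gankyrin, read 9.90, 10.21, 9.74 and 9.53, with a GFP difference of 0.31 and a Dox difference below 0. Psmd9 differed by 0.24 and 0.10. Of the other activators, Psme3, the nuclear relative of Psme1, differed by 0.11 and 0.42, and its second measured probe set gave 0.30 and 0.67. Psme4, a large activator of the core, read 11.58, 11.75, 11.59 and 11.32, with differences of 0.17 and -0.27, and its probe sets in the Dox pair ranged from -0.27 to 0.07. Of the 2 genes that are no subunits, Psme3ip1 differed by 0.11 and 0.31. Psmc3ip, a recombination factor, was under the floor in the GFP pair, and its Dox difference of -0.19 is a bound because Dox plus was under the floor.

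Several members had probe sets that disagreed. In the GFP pair 18 members had more than 1 measured probe set, and in 7 of them a probe set differed in sign from the one used. In the Dox pair this held for 8 of 17. All of these were other subunits, among them Psmb4, Psma6, Psmd11 and Psmd13 in both pairs. Of the immunoproteasome genes only Psmb8, and only in the Dox pair, had more than 1 measured probe set. Psma6 ranged from -0.01 to 0.29 in the GFP pair and from -0.37 to 0.27 in the Dox pair. Psma3 ranged from -0.13 to 0.21 in the GFP pair. A further probe set of Psmb1 was under the floor in GFPhigh and in both arrays of the Dox pair and read 5.92 in GFPlow, which gave at least 0.92.

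**Figure D3:**
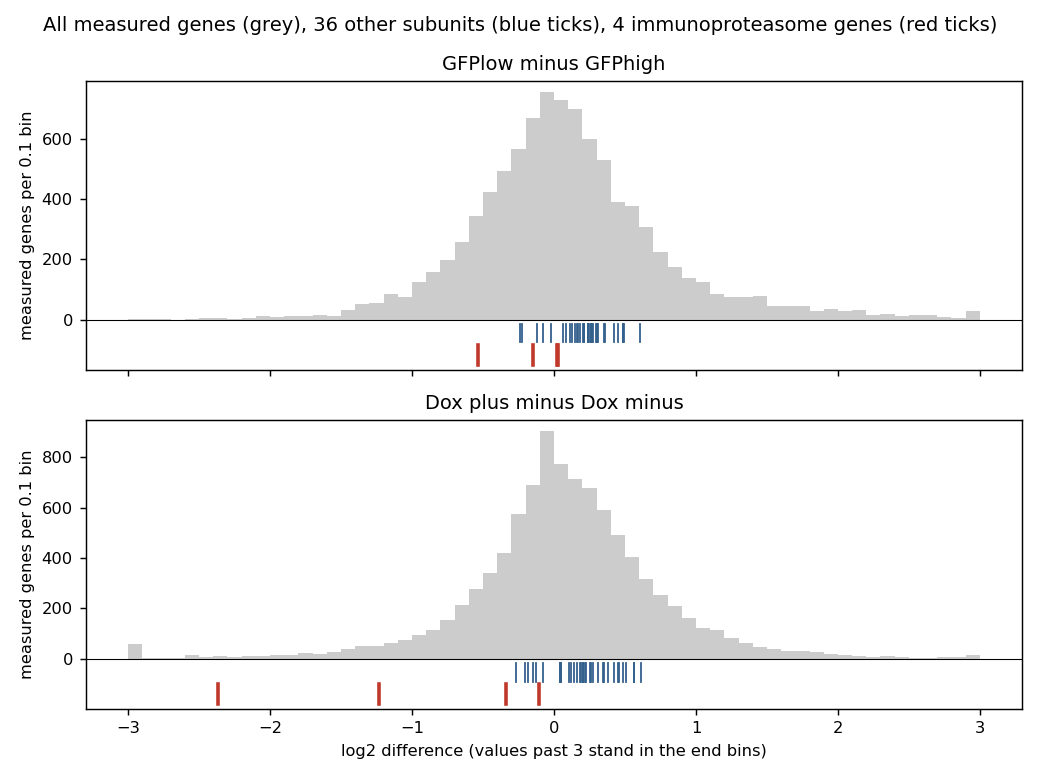
Number of measured genes per 0.1 of log2 difference (grey bars, values past 3 in the end bins) in the GFP pair (top) and the Dox pair (bottom), with ticks below for the 36 other subunits (blue) and the 4 immunoproteasome genes (red). The blue ticks bunch just above 0 with medians of 0.24 and 0.21, while 2 red ticks in the lower panel lie at -2.36 and -1.23.

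The pairs share no array. Over the 36 other subunits measured in both, 28 were above 0 in both pairs (77.8%, against 37.4% of the 9023 genes measured in both) and 3 below 0 in both. The differences of these subunits in the GFP and the Dox pair correlated at Pearson r = 0.49 and Spearman rho = 0.47 across genes. For the 9023 genes the values were 0.29 and 0.39. Genes are no independent replicates, and the probe sets are the same in both pairs, so these values describe the arrays and carry no test.

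**Figure D4:**
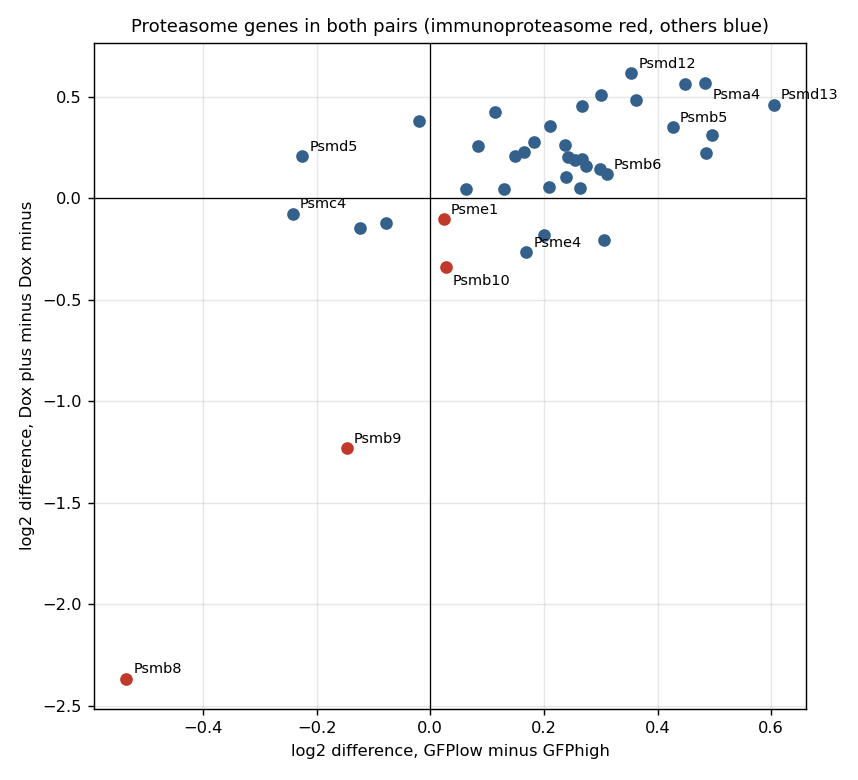
Log2 difference of the 40 measured subunit genes in the GFP pair (horizontal axis) and the Dox pair (vertical axis), immunoproteasome in red and other subunits in blue, 1 point per gene. Of the blue points 28 lie in the upper right quadrant, and Psmb8 (-0.53 and -2.36) and Psmb9 (-0.15 and -1.23) lie in the lower left one.

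Factors that assemble or regulate the proteasome were mostly higher too, with 10 of 12 measured genes above 0 in each pair and medians of 0.39 and 0.33. Of all measured genes 53.2% and 55.0% were above 0, with medians of 0.04 and 0.06. Psmg1 and Psmg2, which together chaperone the alpha ring, differed by 0.82 and 0.65 in the GFP pair and by 0.72 and 0.74 in the Dox pair. Psmg3, of the other alpha-ring chaperone pair, read 9.10 in GFPhigh, 9.72 in GFPlow, 7.24 in Dox minus and 8.63 in Dox plus. Its Dox difference of 1.39 (2.62-fold) was past 2-fold. Its partner Psmg4 was under the floor on all arrays. The proteasome-bound deubiquitinases Usp14 and Uchl5 differed by 0.80 and 0.38 in the GFP pair and by 0.62 and 0.76 in the Dox pair. Pomp, the maturation factor of the core, differed by 0.28 and 0.23. Sem1, which is in this list too, was the lowest of its genes in both pairs.

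Of 15 listed genes for ubiquitin, shuttle factors and the unfoldase Vcp with its cofactors, 8 had a probe set of their own. In each pair 7 of the 8 were above 0, with medians of 0.17 and 0.19 and none past 2-fold, against the same all-gene shares of 53.2% and 55.0%. Vcp differed by 0.57 and 0.26, the shuttle Rad23b by 0.40 and 0.56, the shuttle Ubqln4 by 0.15 and 0.57, and the Vcp cofactor Nploc4 by -0.58 and -0.23.

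The list for transcription of proteasome genes held 7 transcription factors and Ngly1, the glycanase that processes Nfe2l1. Of these 8 genes 7 were below 0 in each pair, with medians of -0.41 and -0.15, where 46.8% and 45.0% of all measured genes were below 0. In the Dox pair 5 of the 8 lay within 0.318 of 0, among them Nfe2l2 at -0.05 and Ngly1 at -0.24. Nfe2l1, the factor that raises proteasome gene transcription when the proteasome is inhibited, read 10.04 in GFPhigh, 9.62 in GFPlow, 9.14 in Dox minus and 8.52 in Dox plus, with differences of -0.42 and -0.62. Mafk, a small Maf partner of such factors, was past 2-fold in both pairs at -1.12 and -1.26. Maff, another, differed by -1.11 and -0.14, Mafg by -0.41 and 0.58, and Foxo4 by 0.56 and -0.03. Nfe2l1 mRNA does not report its activity, which is set by processing of the protein.

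Genes of interferon signalling and peptide loading lay lower on the same arrays as Psmb8 and Psmb9. In the Dox pair 9 of 12 measured genes were below 0, 6 of them past 2-fold, and their median was -0.91, where 45.0% of all measured genes were below 0 and 5.35% past 2-fold. In the GFP pair 9 of 13 were below 0, 2 of them past 2-fold, and their median was -0.43, where the shares over all measured genes were 46.8% and 4.30%. Tap1, the neighbour of Psmb9 and Psmb8, read 9.24 in GFPhigh, 8.69 in GFPlow, 9.45 in Dox minus and 7.25 in Dox plus, with differences of -0.55 and -2.20.

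Tap2 differed by -0.76 and -1.77, and the loading chaperone Tapbp by -0.35 and -1.03. Of the factors that carry interferon signals, Irf7 differed by -1.27 and -2.58, Stat2 by -0.43 and -2.43, Irf9 by -0.82 and -1.04, and Irf1 by -0.47 and -0.80. Irf8, in the same list, was not lower, with differences of 0.31 and 0.01. Nlrc5, the transactivator of MHC class I genes, was at -1.64 or beyond in the GFP pair and under the floor on both arrays of the Dox pair. The general chaperones Calr and Pdia3 differed by 0.25 and 0.34 in the GFP pair and by 0.02 and 0.22 in the Dox pair, and B2m, the light chain of MHC class I, by -0.31 and -0.36.

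**Figure D5:**
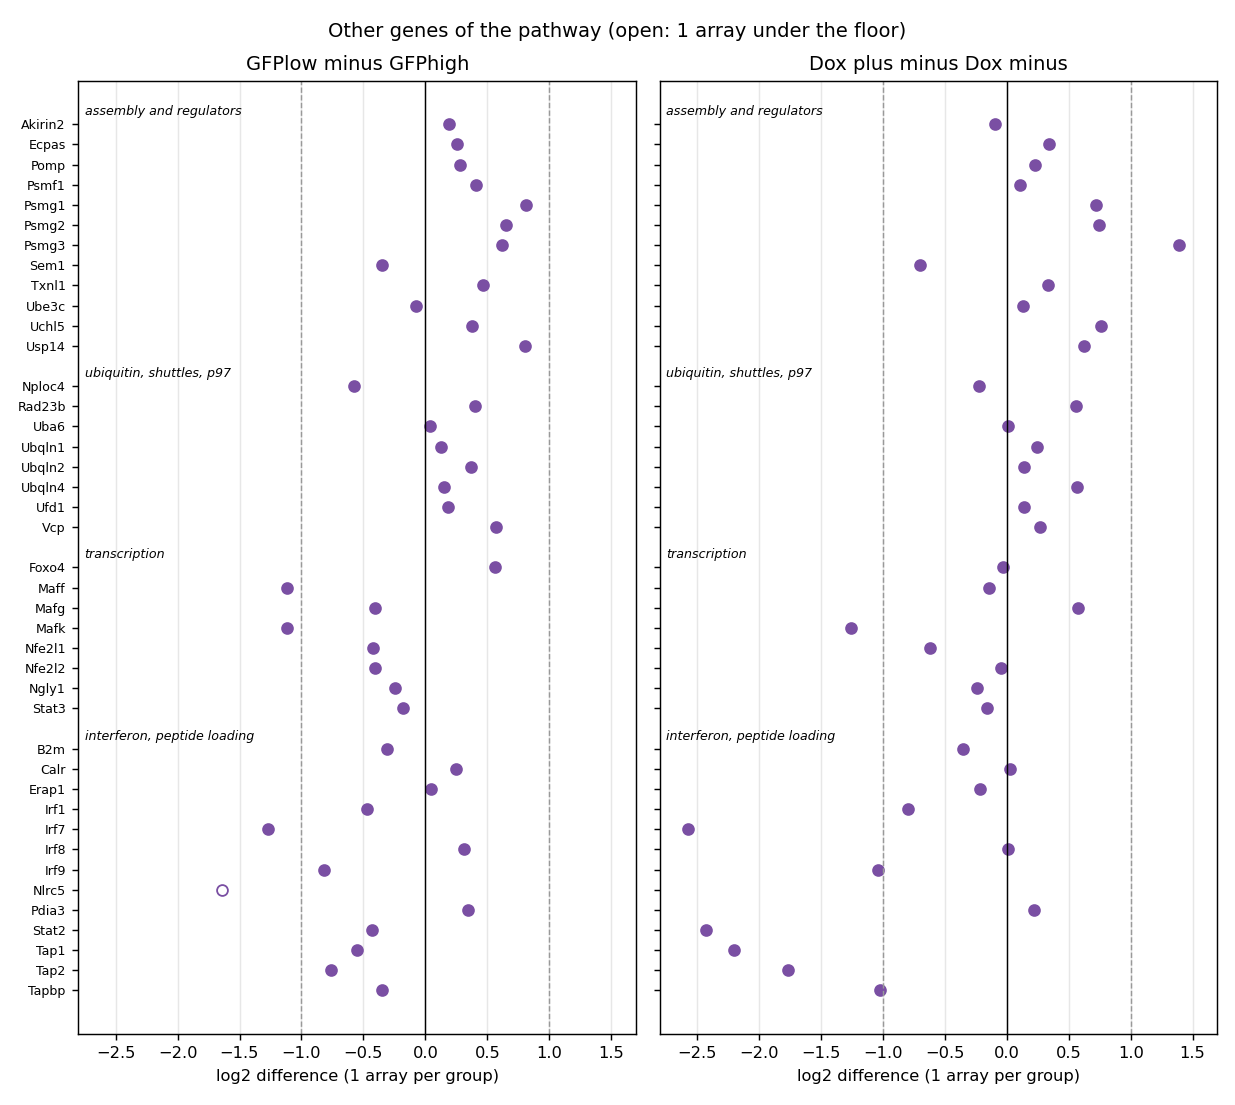
Log2 difference of the measured genes of 4 lists around the proteasome in the GFP pair (left) and the Dox pair (right); open symbols mark a difference with 1 array under the floor, and dashed lines mark 2-fold. Assembly factors lie mostly right of 0, with Psmg3 at 1.39 in the Dox panel, and Irf7, Stat2, Tap1 and Tap2 lie furthest left there.

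The measured leukocyte markers were also lower in Dox plus, though not all by more than the usual gap between probe sets. Of the 15 found, 6 were measured in the Dox pair and all 6 were below 0, with a median of -0.43. Among all measured genes 45.0% were below 0. The lowest of the 6 were the plasma cell gene Jchain at -2.53 or beyond, Laptm5 at -1.53 and the leukocyte marker Ptprc at -0.61. Cd8a at -0.25, Csf1r at -0.08 and Coro1a at -0.04 lay within 0.318 of 0. The log2 of the summed level of the list was 9.64 without and 8.76 with doxycycline. In the sorted cells it was 7.29 in GFPhigh and 7.65 in GFPlow, and only Laptm5 (0.53 or more) and Csf1r (-0.01) were measured. Of the stromal list, Vim (-1.78) and Pdgfrb (-0.32 or beyond) were the 2 genes measured in the Dox pair. The part of such cells in the Dox differences of Psmb8 and Psmb9 was not tested. The differences of the epithelial markers had a median of -0.19 in the sorted cells (from -0.74 to -0.06) and of 0.11 in the Dox pair (from -0.43 to 0.57), with Vil1 lowest in both. Cdx2 differed by -0.49 and 0.57, Krt19 by -0.25 and 0.12, and Krt18 by -0.06 and 0.32.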

How the data were processed

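Gene expression was measured on 4 one-colour arrays of biotin-labelled cRNA, 1 per group. The authors deposited log2 values for 45101 probe sets. Per the submitters' processing notes these come from GCRMA (version and jointly processed arrays not given in the sources used here). Values between 0.47 and 16.27 were taken as log2. GCRMA subtracts a modelled background, so low values carry little information. Differences were taken only within a pair.

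Of a gene's probe sets the one brightest on average over the 4 arrays stood for it, among probe sets with 1 symbol in a platform annotation of 2016. Values under 5 were set to 5. A 2-fold difference was counted. Alternatives were floors of 4 and 6, no floor, quantile normalization, a loess correction (span 0.4), the mean of probe sets, the omission of probe sets with an _x, _s or _a tag, and a threshold of 0.5. Functions were tested on simulated data.

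Members and lists were chosen with earlier results of these data known. Named are the immunoproteasome genes and their partners, the 5 highest and 5 lowest other members of each pair, members whose probe sets disagree, and the 3 members of each list with the largest differences. Values of further members were added to complete each role. Several listed genes had no probe set of their own and were not analysed here. Python 3.11.15, pandas 2.3.3 and statsmodels 0.14.6 were used.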

Additional observations from a re-analysis of the deposited data

How the results depend on the processing

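The medians of the other subunits kept their direction under all 7 alternatives, from 0.24 to 0.27 in the GFP pair and from 0.17 to 0.21 in the Dox pair, and adding the 2 genes that are no subunits, chosen after seeing the data, gave 0.24 and 0.21. The gap between the immunoproteasome and the other subunits stayed below 0, from -0.30 to -0.22 in the GFP pair and from -1.01 to -0.54 in the Dox pair. The immunoproteasome median in the GFP pair was near 0 and ranged from -0.06 to 0.02. Leaving out probe sets with an _x, _s or _a tag removed Psmb8, which moved the immunoproteasome median in the Dox pair to -0.34 and its gap to -0.54. It left 1 member, Psmb9, at least 2-fold lower in the Dox pair, and made 1 member at least 2-fold lower in the GFP pair, Psmd13 at -1.03. With the threshold of 0.5, 1 member was higher and 1 lower in the GFP pair, and 4 were higher and 2 lower in the Dox pair, against 21.8%, 15.8%, 21.0% and 14.3% of all measured genes. Single members changed sign most often without these probe sets, 5 of 34 in the GFP pair and 4 of 31 in the Dox pair. The mean of probe sets changed the sign of Psmb4 (0.06) and Psmd6 (-0.07) in the GFP pair and of Psmc2 (0.03) and Psmc6 (-0.04) in the Dox pair, and took Psmd13 in the GFP pair from 0.60 to 0.16. Quantile normalization and loess changed the sign of Psmd9 in the Dox pair (-0.05 and -0.07), and loess that of Psmc6 in the GFP pair (0.01). No paired analysis was possible because each group is 1 array. Depth has no meaning for arrays, and genes under the floor of 5 have no usable value.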
